A study of Mus musculus with 7 samples.

Results

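Short HDAC1 peaks inside introns, away from any transcription start site (TSS), made up 1513 of the 15347 HDAC1 peaks (9.86%) listed for mouse limb buds at E11.5. A member was a peak shorter than 800 bp that overlapped no TSS window (2 kb on the upstream side and 1 kb on the downstream side of any TSS), lay whole inside the body of a protein-coding gene and overlapped no exon (GENCODE M21 basic transcripts, mm10). Of 11266 peaks under 800 bp, 3522 lay outside every TSS window, 1939 of these lay inside a protein-coding gene body, and 426 of those were then dropped because they touched an exon. The list came from 4 HDAC1_ChIP samples and 3 input samples of fixed chromatin without the antibody, all from Swiss Webster forelimb and hindlimb buds of embryos with 40 to 44 somites. The labels name no allele and no treatment for either group, and each sample pooled limb buds of 3 litters, so mesenchyme, ectoderm, muscle precursors and vessels were sampled together. Since the submitters gave 1 list for all samples, no value below has a replicate error. The list has coordinates alone, and the order of its rows was read as the rank order that the study states for its peaks, so that position 1 is the best placed peak. The depth behind a peak is not known from it. The members were picked by length and place from this same list, so lengths, list positions and places are descriptions and carry no test.

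HDAC1 is a histone deacetylase. It takes acetyl groups off histone tails as the catalytic subunit of corepressor complexes such as NuRD, SIN3 and CoREST, and it is found at active as well as silent genes. Introns hold many enhancers, the distal elements that drive tissue-specific transcription, and the first intron lies next to the promoter. In the limb bud, GLI3 repressor restrains Hedgehog target genes through such elements, and deacetylation is one way in which a repressor can act on them.

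The stretches under 3 of the 5 best placed members are shown to let the letters at the top of the list be read, with CG dinucleotides in capitals. All sequences are the plus strand of GRCm38.p6 (mm10), 5′ to 3′, at most the central 300 bases of the peak.
Phf21b (chr15:84829450-84829749): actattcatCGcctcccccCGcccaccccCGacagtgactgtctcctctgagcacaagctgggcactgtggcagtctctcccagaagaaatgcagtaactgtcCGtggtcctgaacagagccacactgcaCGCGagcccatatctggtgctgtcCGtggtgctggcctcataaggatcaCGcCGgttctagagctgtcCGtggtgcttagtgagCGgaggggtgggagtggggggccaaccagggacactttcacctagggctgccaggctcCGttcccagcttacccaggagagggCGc
Erich1 (chr8:14072575-14072874): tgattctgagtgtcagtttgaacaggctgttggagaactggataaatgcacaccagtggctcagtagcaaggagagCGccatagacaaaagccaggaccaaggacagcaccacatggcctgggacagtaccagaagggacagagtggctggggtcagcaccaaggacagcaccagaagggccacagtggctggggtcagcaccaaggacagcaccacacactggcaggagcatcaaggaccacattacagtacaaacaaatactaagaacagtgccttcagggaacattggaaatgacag
Hoxd11 (chr2:74685100-74685399): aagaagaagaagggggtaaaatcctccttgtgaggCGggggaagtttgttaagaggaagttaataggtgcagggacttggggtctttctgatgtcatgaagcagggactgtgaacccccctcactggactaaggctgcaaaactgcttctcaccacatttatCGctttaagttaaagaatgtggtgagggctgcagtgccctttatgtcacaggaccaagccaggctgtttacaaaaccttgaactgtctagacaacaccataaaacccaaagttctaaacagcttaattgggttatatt
The Phf21b member stood at position 3 of the list, in intron 2 of 12 of this PHD-finger gene, and the stretch shown was 61.7% G and C with 13 CG dinucleotides. Erich1 followed at position 24 (intron 2 of 5), with 52.7% G and C and a single CG dinucleotide. Both stretches repeat a word of 10 bases 3 times, while no word of this length recurs in the Hoxd11 stretch. The Hoxd11 member (position 261) lies inside the gene body but outside the representative transcript of this posterior HOX gene, and its stretch was 45.0% G and C.

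A further 3 members are shown because they lie in genes of the lists described below and hold the GLI core TGGGTGG, the binding word of the Hedgehog effectors, in the 200 bp around their midpoint. The core is in capitals on either strand.
Trps1 (chr15:50886650-50886899): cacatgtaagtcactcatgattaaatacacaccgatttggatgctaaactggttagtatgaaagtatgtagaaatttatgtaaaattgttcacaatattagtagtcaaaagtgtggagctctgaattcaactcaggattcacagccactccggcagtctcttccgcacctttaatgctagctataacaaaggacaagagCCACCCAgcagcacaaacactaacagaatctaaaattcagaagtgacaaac
Tcf7l1 (chr6:72678725-72679024): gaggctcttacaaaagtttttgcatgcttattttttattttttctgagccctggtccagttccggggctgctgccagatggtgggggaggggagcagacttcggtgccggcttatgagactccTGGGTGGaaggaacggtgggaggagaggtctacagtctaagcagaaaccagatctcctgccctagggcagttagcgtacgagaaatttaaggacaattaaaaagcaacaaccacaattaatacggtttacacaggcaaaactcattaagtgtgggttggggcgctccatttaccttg
Sufu (chr19:46422700-46422849): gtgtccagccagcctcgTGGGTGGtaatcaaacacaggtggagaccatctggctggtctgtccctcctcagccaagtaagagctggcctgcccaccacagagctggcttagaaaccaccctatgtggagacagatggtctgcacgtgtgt
Trps1 encodes a GATA-type repressor of cartilage development, and its member stood at position 7411. Tcf7l1 encodes a repressor of Wnt target genes, and its member (position 7414) also holds an E-box CAGATG. Sufu encodes the inhibitor that holds GLI proteins in the cytoplasm, and its 150-bp member stood low in the list, at position 13778. The GLI core was found in the windows of 57 of the 1513 members (3.77%, 95% Wilson interval 2.92 to 4.85%), against 4.26% of all 200-bp windows of the same intronic sequence. The shown members are thus examples, and the share of the core in members did not exceed that in intron sequence at large.

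Members stood mostly late in the list. Their length ran from 100 to 750 bp with a median of 300 bp, while the whole list had a median of 450 bp. The median list position was 10873 (quartiles 7888 and 13367), the best position was 3 and the last 15339. Short intergenic peaks, which lay outside every TSS window and every gene body, had the near-identical median of 10829 (n = 1307), and short peaks in a TSS window had 8921 (n = 7744). Cut into 4 equal runs from the best placed to the last, the list held 80, 269, 488 and 676 members, or 2.09%, 7.01%, 12.7% and 17.6% of the peaks of each run. Length and position moved together. Members of 100 to 150 bp had a median position of 13520 (n = 164), and members of 500 to 750 bp had 7318 (n = 238). Just inside the length limit, 27 members of 750 bp had a median position of 6342, and just outside it 18 distal intronic peaks of 800 bp had 6026. In all, 121 distal intronic peaks were 800 bp or longer.

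**Figure D1:**
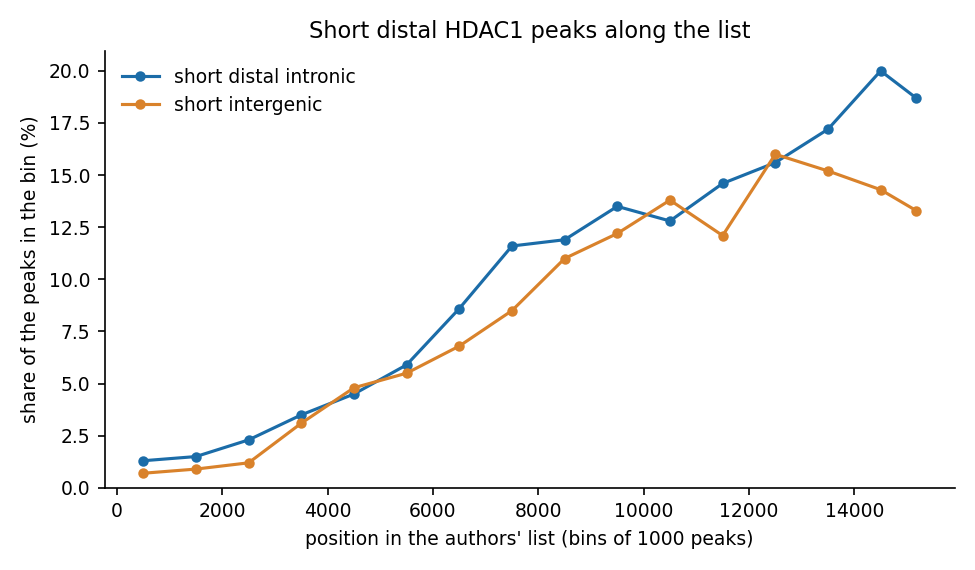
Share of the peaks in each run of 1000 list positions (y axis, percent; the last run is shorter) that were short distal intronic peaks (blue) or short intergenic peaks (orange), against the position in the authors' list (x axis). Members made up 2.09% of the best placed of 4 equal runs of the list and 17.6% of the last, and the curve of the short intergenic peaks ran close to theirs.

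The members lay in 991 protein-coding genes. Since gene bodies overlap, the 1513 members formed 1574 member-host pairs, of which 1468 members had 1 host, 43 had 2 and 2 had more. Of the 19249 protein-coding genes with any sequence that the rule could have taken (eligible sequence), 5.15% hosted at least 1 member, 1.54% hosted 2 or more and 0.613% hosted 3 or more. Most hosts (695, or 70.1%) had a single member, 296 had at least 2, 118 had at least 3 and 35 had at least 5. Once neighbouring peaks up to 1000 bp apart had been joined into 1, 168 hosts had at least 2 and 46 had at least 3. The 296 genes with several members held 879 of the pairs (55.8%). Hosts were long genes, with a median length of 109 kb against 20.6 kb for genes without a member. By eligible length, 1.48% of genes with at most 10 kb and 35.9% of genes with over 300 kb were hosts. Per Mb of eligible sequence the order was different, with 4.49 pairs per Mb in the genes of at most 10 kb, 1.37 in those over 300 kb and 1.70 over all genes.

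The 10 genes that hosted the most, with ties taken by best position, were Gm20388, Mecom, Gse1, Pknox2, Frmd4a, Lrmda, Jazf1, Tenm4, Bcor and Bmp7. In all 5 genes had 7 members, and Bmp7 had the best placed one. Gm20388 led with 27 members, but this gene model spans 4435 kb of chromosome 8 and 17 of its members also lie in other hosts inside it, among them Gse1 with 10 and Cbfa2t3 with 5. The leading gene of ordinary structure was Mecom, which encodes a zinc-finger transcription factor with a SET-type domain in its long form. It had 15 members in 597 kb, 12 of them in the first intron. A run of 5 of these lay 401 to 405 kb downstream of the representative TSS (chr3:30104450-30108649), at list positions 3144, 9781, 12899, 13579 and 5495. Gse1, whose product is found with the CoREST complex, had 10 members, of which 6 lay upstream of the start of the representative transcript and 4 in its first intron. Pknox2, a homeobox gene of the TALE class, had 9. Of these, 3 lay side by side 3.03 to 3.93 kb from the TSS (positions 4142, 6223 and 9245), and another 3 sat in intron 2 more than 92 kb in, around a peak of 700 bp at position 2976. Jazf1, a zinc-finger gene, had 9 members at positions 8660 to 15105, and 6 of them were in later introns. Lrmda also had 9, all in later introns of a 1036-kb gene, and it was the one gene of the 10 without an HDAC1 peak in a TSS window of its own. Frmd4a had 9 and Tenm4, a teneurin gene, had 8.

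**Figure D2:**
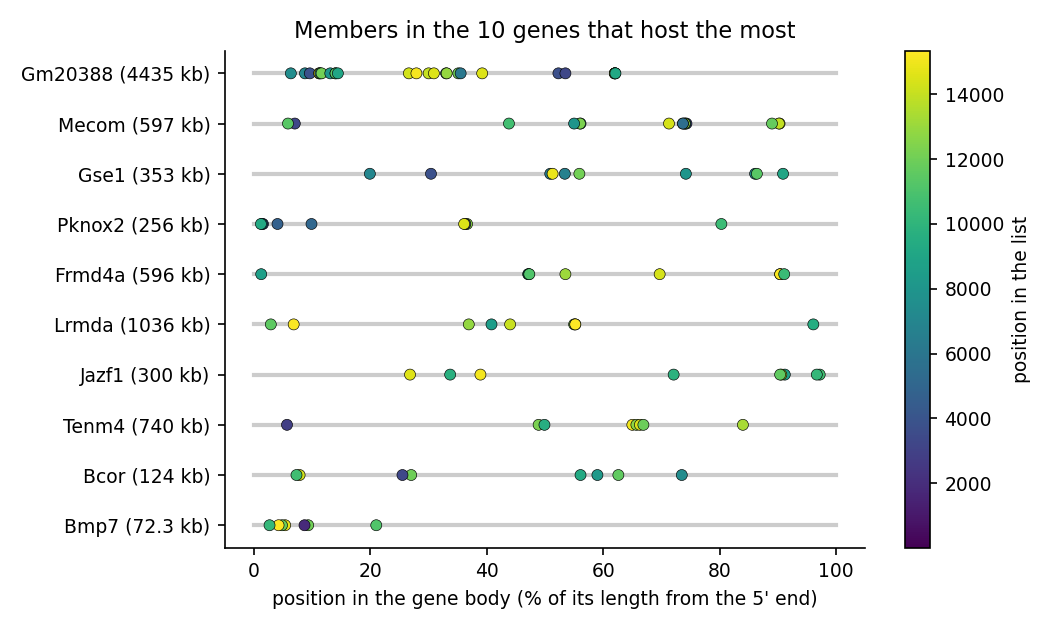
Members (points) along the 10 genes that hosted the most, placed by percent of the gene's length from its 5′ end (x axis), with gene lengths beside the names and colour for the position in the list. Bmp7 members gather near the 5′ end and those of Lrmda spread along the gene. Those of Jazf1 lie at 26.8 to 97.2% of its length, most of them towards the 3′ end. Dark, well placed members such as those of Mecom sit beside late ones.

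Bmp7 and Bcor stood out among these genes by size. Bmp7, a secreted ligand of the BMP pathway, had 7 members in only 72.3 kb, all in the first intron and all 1.92 to 15.2 kb from the TSS. Its best member (600 bp, position 1855) lies 50 bp from a 200-bp member at position 12033. The Bmp7 members otherwise stood at positions 10248 to 15308. Bcor, the X-linked gene of the BCL6 corepressor, had 8 members in 124 kb, and 7 of them lay upstream of the representative start, inside the longer gene model. Per 100 kb of eligible sequence and among hosts with at least 3 members, the highest values were 63.3 for Zadh2, 41.0 for Gm21887, 37.1 for Sall1, 36.2 for Nfil3 and 29.3 for Bop1. Sall1, a zinc-finger gene needed for limb and kidney development, had 4 members within intron 2, at positions 7655 to 13265 and 5.31 to 7.04 kb from its TSS. Nfil3, a bZIP repressor gene, had 4 in its single intron, at 1.17 to 4.87 kb. These values rest on 3 to 5 members in 4.74 to 17.1 kb each.

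The hosts of the 10 best placed members were Phf21b, Erich1, Hoxd11, Celf4, Unc5a, Atoh8, Camta1, Xkr6, Rbfox3 and Dysf, at positions 3 to 740. Atoh8, a basic helix-loop-helix gene, had 5 other members, all past position 10000, 2 of them beside the best one in intron 2. The Phf21b, Erich1, Hoxd11 and Dysf genes had no other member. In Camta1, Xkr6 and Celf4 the other member stood at 12859, 14534 and 12159. In Unc5a it stood at 13374, and Rbfox3, a splicing factor gene, had 2 others at 6596 and 12906.

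The first intron held a larger part of the members than of the eligible sequence. Of the 1574 pairs, 585 (37.2%, 34.8 to 39.6%) lay in the first intron of the representative transcript, which held 22.5% of the eligible sequence. Later introns held 816 pairs (51.8%) in 68.5% of the sequence, and 173 pairs (11.0%) lay in gene body outside the representative transcript. The density was 2.80 pairs per Mb in first introns and 1.29 in later ones, a ratio of 2.18 (1.96 to 2.43, exact interval of counting error over peaks). It went down with intron number, from 1.93 in intron 2 and 1.73 in intron 3 to 1.23 in intron 4 and 0.810 in intron 5, and was 0.965 from intron 6 on. Member lengths had medians of 300 bp in first introns and 250 bp in later ones, and median positions of 11240 and 10800.

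Much of this difference lay close to a TSS. Up to 5 kb from the nearest TSS, first introns held 6.17 pairs per Mb (330 pairs) and later introns 2.32 (154 pairs), a ratio of 2.66 (2.19 to 3.24). Beyond 5 kb the values were 1.64 and 1.16 per Mb, a ratio of 1.41 (1.21 to 1.63). Beyond 100 kb they were 1.12 and 0.938, with intervals that overlapped widely (0.484 to 2.21 and 0.725 to 1.19). The median member lay 12.5 kb from the nearest TSS (quartiles 2.97 and 32.9 kb, range 1.10 to 435 kb). For pairs in first introns the median was 3.60 kb and for pairs in later introns 21.7 kb.

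**Figure D3:**
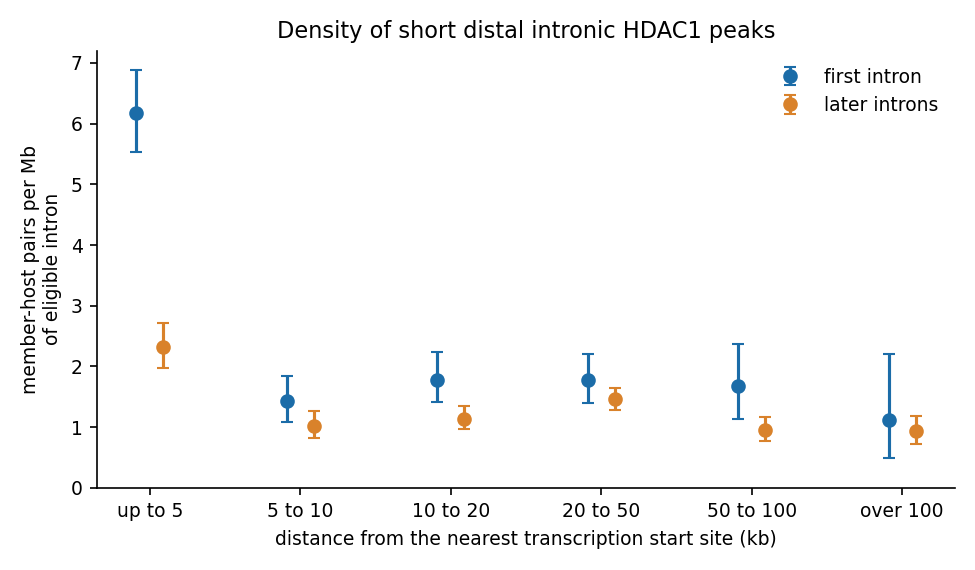
Member-host pairs per Mb of eligible intron (y axis, with 95% Poisson intervals over peaks) by distance from the nearest TSS (x axis, kb) in first introns (blue) and later introns (orange). First introns reach 6.17 per Mb up to 5 kb and lie between 1.12 and 1.78 beyond, and later introns reach 2.32 and then lie between 0.938 and 1.46.

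Part of the members lay close to other HDAC1 peaks. The same shares were not taken for other kinds of peak, so they are not shown to be particular to members. Another HDAC1 peak of any kind lay within 1 kb of 568 members (37.5%), and another member within 1 kb of 287 (19.0%). A peak in a TSS window lay within 1 kb of 278 members (18.4%, 16.5 to 20.4%) and within 5 kb of 437 (28.9%). At the other end, 557 members (36.8%) had no other HDAC1 peak within 20 kb. Within hosts of several members there were 583 neighbouring pairs, 346 of them (59.3%) in the same intron, and the median gap was 8.40 kb. The smallest gap was 50 bp, the grid on which the authors' caller placed starts and ends, and 13 pairs had it. Among these were members of Alx4, a homeobox gene of limb anteroposterior patterning, and of Bmp7. The list does not tell whether such neighbours are pieces of a broader bound stretch.

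Hosts had an HDAC1 peak at their own promoter more often than genes at large. A peak in a TSS window of the gene's own transcripts was present for 738 of the 991 hosts (74.5%, 71.7 to 77.1%), for 45.4% of genes without a member and for 46.9% of all genes with eligible sequence. The share was 70.5% for hosts of 1 member, 82.6% for hosts of 2 and 85.6% (101 of 118) for hosts of 3 or more. It held at each gene length, with 78.8% of hosts against 35.6% of other genes under 20 kb and 71.2% against 58.3% from 200 kb up. Promoter peaks come from the same list as the members, so these shares are not independent of how members were chosen.

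Hosts were common among listed genes of limb development, though these genes are a small part of the 991 hosts. The lists were drawn up with earlier results of these data known, so their counts describe and do not test. Of 56 limb patterning transcription factor genes with eligible sequence, 28 hosted a member (interval of the share 37.3 to 62.7%), against 5.15% of all protein-coding genes, and they held 16.4 pairs per Mb against 1.70. Zfhx3 had 7 members in 1019 kb, and Lmx1b, which sets dorsal fate in limb mesenchyme, had 5, all in intron 2. The Lmx1b members stood 5.66 to 45.7 kb from the TSS, the best of them at position 3846. Prrx2, a homeobox gene of limb mesenchyme, had 3 members of 550 to 650 bp at positions 3156, 6636 and 8115, and Tbx15 and Sall3 had 3 each. All 3 members of Tbx15 and 1 of Prrx2 lay upstream of the representative start.

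In the Hedgehog pathway, 5 of 15 genes were hosts (33.3%, 15.2 to 58.3%, 7.83 pairs per Mb). Shh, the ligand of the limb's posterior signalling centre, had 2 members in its first intron, 4.21 and 5.38 kb from the TSS (positions 6583 and 11495). Disp1, which releases the ligand from cells, had 2, at 6003 in the first intron and 13234 in intron 4. Ptch1, the receptor and itself a target of the pathway, had a 700-bp member in intron 15 at position 4836 and a 300-bp member upstream of the representative start at position 8183. Gli2, an effector, had the best placed members of the pathway, at 2922 in the first intron and at 4188 in intron 2, 151 kb from the TSS. Sufu had the 1 shown above. All 5 had an HDAC1 peak at their promoter, as did 13 of the 15 genes.

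Among BMP and TGF-beta genes, 12 of 32 hosted a member (37.5%, 22.9 to 54.7%) at 13.5 pairs per Mb. Besides Bmp7, the inhibitory SMAD genes Smad6 and Smad7 had 6 and 3 members, the coreceptor gene Tgfbr3 had 5 and the ligand gene Tgfb1 had 3. The Tgfb1 members lay next to each other, 1.67 to 2.50 kb from the TSS, yet no peak fell in a TSS window of this gene. Fmn1, a formin gene whose locus bears on limb BMP signalling, had 2. Of 32 Wnt genes 9 were hosts (28.1%, 8.20 pairs per Mb). Tcf7l2, a nuclear effector, had 6 members, 5 of them in intron 3, and Tcf7l1 had 4. The receptor gene Ror2, the inhibitor gene Axin2, the receptor gene Lgr5 and the ubiquitin ligase gene Znrf3 had 3, 3, 2 and 2. Of 17 retinoic acid genes 7 were hosts (41.2%, 9.62 pairs per Mb), led by the receptor gene Rara with 3 members. The receptor genes Rarb and Rarg and the degrading-enzyme genes Cyp26b1 and Cyp26c1 had 1 each. Notch genes (4 of 20, with Notch2 at 3 members) and FGF genes (3 of 19) held fewer hosts. In the FGF list Fgfr2 had 5 members, in a gene model of 2961 kb that reaches far beyond its coding transcript. Of these, 3 lay outside the representative transcript, far upstream of its start and 8.61 to 43.3 kb from the nearest TSS of any gene. The remaining 2 lay in its introns 1 and 10.

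Transcription factor families and guidance genes stood beside the signalling lists. Of 24 NFI, TEAD, GATA and ETS factor genes 14 were hosts (58.3%, 38.8 to 75.5%, 10.7 pairs per Mb). Nfia had 6 members, Nfib had 4, and Nfix, Ets1, Gata4 and Tead1 had 2 each. All members of Nfib and Gata4, and 1 each of Nfix and Ets1, lay outside the representative transcript. Gata4 had no promoter peak. Of 32 axon guidance and repulsion genes 18 were hosts (56.2%), but these are long genes, with a median eligible length of 173 kb, and their density was 3.38 pairs per Mb. Efnb1, the gene of an ephrin that sorts cells at borders, was a short host, with 2 members in 12.9 kb, one of them at position 2015. Slit2, a secreted repellent, had 3 in its first intron. Cartilage and skeletal genes gave 12 of 29 (41.4%) at 3.92 pairs per Mb. Trps1 and Sox6 had 4 members each, and 2 of those in Sox6 lay upstream of its representative start. A member of Col2a1, the collagen of cartilage, stood at position 2369. Extracellular matrix and adhesion genes gave 6 of 36 at 1.33 pairs per Mb, which is under the 1.70 of all genes although their share of hosts was above 5.15%.

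Some corepressor genes were hosts too. Of 34 genes of HDAC1 complexes and corepressors 9 hosted a member (26.5%, 14.6 to 43.1%, 8.29 pairs per Mb), and 33 of the 34 had a promoter peak. Among the hosts besides Bcor were Hdac9 with 4 members, Rere with 3, Ski with 2 and Chd3, a NuRD helicase, with 1. Hdac9 was the gene without a promoter peak, and 3 of its 4 members lay outside its representative transcript.

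**Figure D4:**
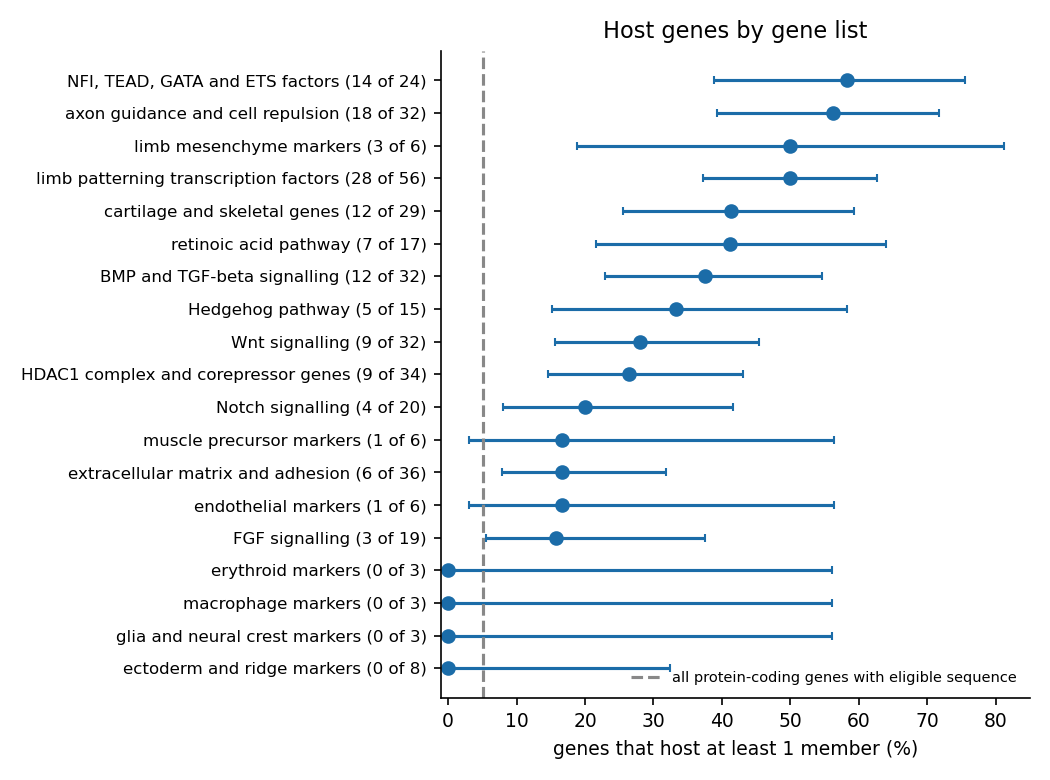
Percent of the genes of each list shown that hosted at least 1 member (x axis, points with 95% Wilson intervals), with hosts and genes with eligible sequence beside the list names and the 5.15% of all protein-coding genes as a dashed line. NFI, TEAD, GATA and ETS factors (14 of 24) and guidance genes (18 of 32) lead. Limb patterning factors (28 of 56) and limb mesenchyme markers (3 of 6) follow, and the 3 marker hosts are also among the 28. The 4 marker lists without a host hold only 3 to 8 genes with eligible sequence each. That is too few for 0 hosts to stand apart from 5.15%.

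The labelled tissue was checked against marker genes. Of the 6 limb mesenchyme markers, all had an HDAC1 peak at their promoter and 3 were hosts, namely Tbx4 with 2 members and Tbx5 and Pitx1 with 1 each. These 3 were already counted among the limb patterning factors. Of 8 markers of ectoderm and ridge with eligible sequence 2 had a promoter peak and none was a host (0 of 8, an upper Wilson bound of 32.4%). Muscle precursor markers had promoter peaks at 4 of 6 and 1 host (Pax7), and endothelial markers had promoter peaks at 3 of 6 and 1 host (Erg). Erythroid, macrophage, and glia and neural crest markers gave 0 hosts of 3 each, with promoter peaks at 1, 0 and 0. Over all protein-coding genes with eligible sequence, 46.9% had a promoter peak and 5.15% were hosts. At 5.15%, lists of 3 to 8 genes are too small for 0 or 1 host to set them apart from genes at large. In pooled limb buds, binding in fewer cells and weaker binding in all cells cannot be told apart.

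The letters of the reference sequence were not used to choose members, and members were compared on them with the short intergenic peaks by Fisher's exact test (two-sided) over peaks. Peaks are not biological replicates and neighbours are not independent, so these p-values measure counting error alone. In the 200 bp around the midpoint, members had a mean of 51.1% G and C (SD 8.42 over 1513 members), short intergenic peaks 52.1% (SD 9.17 over 1307), and all eligible intronic windows 42.2%. Windows with at least 55% G and C made up 28.1% of members (25.9 to 30.4%) and 31.6% of short intergenic peaks (29.1 to 34.2%), a difference of -3.51 percentage points (p = 0.0430, Fisher's exact test), against 4.45% of eligible windows. This difference passed the threshold narrowly and missed it in 4 of 5 other settings. Of all HDAC1 peaks, 74.3% had such a window, and of short peaks in a TSS window 83.6%. Members up to 5 kb from a TSS reached 32.6% (28.8 to 36.8%), members farther away 25.7% (23.1 to 28.5%). Over the 4 equal runs of the list it went from 39 of 80 members (48.8%, 38.1 to 59.5%) in the best placed to 162 of 676 in the last (20.9 to 27.3%). Windows without any CG dinucleotide made up 6.01% of members and 27.9% of eligible windows. The midpoint was soft-masked as a repeat in 10.9% of members and 10.6% of short intergenic peaks, a difference of 0.347 percentage points (p = 0.807, Fisher's exact test), against 29.4% of eligible windows.

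Windows were then searched for 21 motifs on both strands. The GLI core is TGGGTGG, and the longer GLI word that contains it is TGGGTGGTC. For basic helix-loop-helix factors the E-box CAGCTG was searched, followed by a second E-box, CAGATG, which many neural and mesodermal factors read, and by CACGTG, which MYC-type factors read. Homeodomain proteins were covered by TAATTA (homeobox), MEIS factors by TGACAG, pairs of PBX and HOX proteins by TGATTNAT and posterior HOX proteins by CAATAAA. Signal-driven factors were covered by TGANTCA for AP-1, by CATTCCA for TEAD proteins and by CTTTGAT for the TCF/LEF family. Lineage factors were covered by ACAAAGG for SOX proteins, by TGTGGTT for RUNX proteins and by AGATAAG for zinc-finger proteins of the GATA family. ETS factors had CCGGAAG as a promoter-type word, with CAGGAAG as the other. The promoter-linked words were GGGCGGG for SP and KLF proteins and AAGATGGC for YY1. For the core of the insulator protein CTCF, AGGGGGC was searched. The palindromic NFI motif completed the set. No motif differed between members and short intergenic peaks at an adjusted p under 0.05 (0 of 21, 0% of motifs called, Fisher's exact test with Benjamini-Hochberg adjustment). At an unadjusted p under 0.05 there were 2, both less frequent in members. SP/KLF was in 6.41% of members and 8.49% of short intergenic peaks (difference -2.08 percentage points, p = 0.0363, adjusted p = 0.384, Fisher's exact test). The GLI core was in 3.77% and 5.43% (difference -1.66, p = 0.0369, adjusted p = 0.384, Fisher's exact test). A p that misses the threshold does not show that the sets are alike.

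Against eligible intronic windows, which get no test here, members held some words more often. The E-box CAGCTG, read by bHLH factors such as TWIST1, was in 286 members (18.9%) and in 7.67% of eligible windows, 2.47 times the share. For SP/KLF the ratio was 6.92 (0.927% of eligible windows), for the CTCF core 3.05 (5.02% against 1.65%) and for ETS CCGGAAG 2.68 (1.39% against 0.518%). GATA, PBX-HOX and AP-1 were less frequent than in eligible windows, at ratios of 0.523, 0.634 and 0.671. The homeobox word was near it, at 7.27% against 7.16%. Members were richer in G and C than eligible windows, as given above, and the part of base composition in these ratios was not tested. The 9-base GLI word was found in 3 members, which were looked up after their number was seen. They lie in Tcf20, Ndnf and Dlc1, at positions 10313, 11991 and 14529, and the share of 0.198% (0.0675 to 0.581%) compares with 0.127% of eligible windows. A match describes letters in a window and is no evidence of binding.

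**Figure D5:**
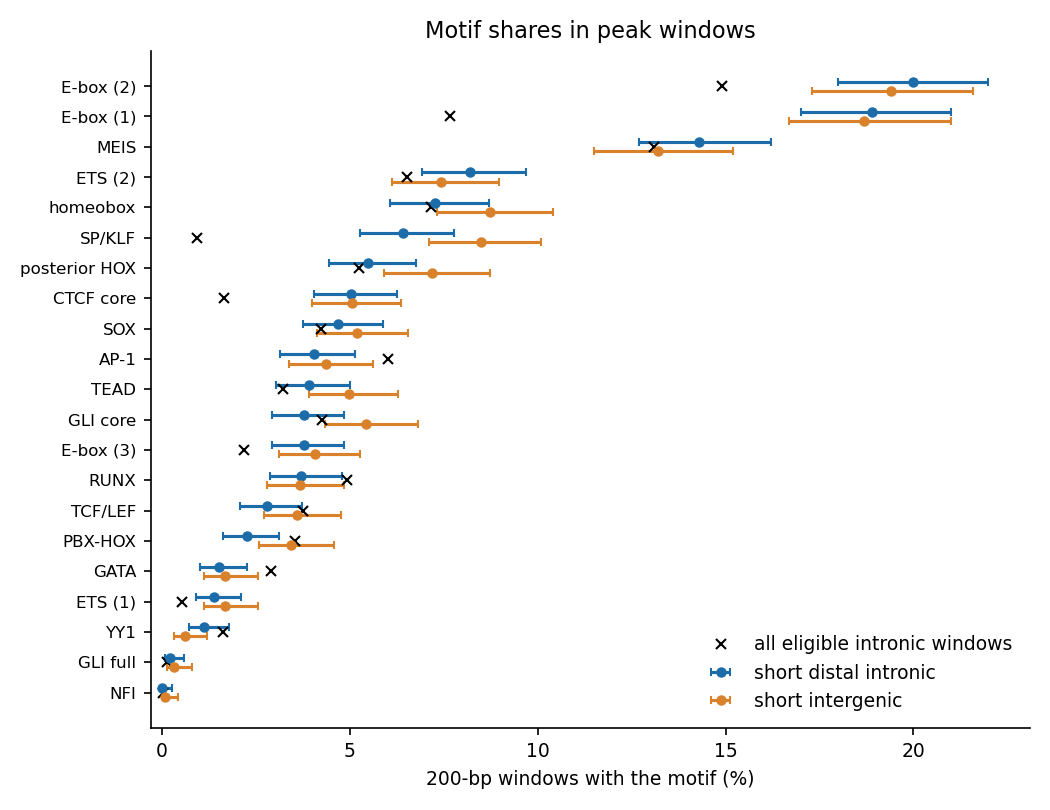
Percent of 200-bp windows that hold each of 21 motifs (x axis) in short distal intronic peaks (blue) and short intergenic peaks (orange), with 95% Wilson intervals, and in all eligible intronic windows (crosses). The numbers 1 to 3 after E-box, and 1 and 2 after ETS, follow the order in which the text gives those words. The intervals of both peak sets overlap for each motif, and crosses lie outside the intervals of both sets for several motifs, among them E-box (1), SP/KLF and the CTCF core.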

How the data were processed

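HDAC1 ChIP-seq had been done on 4 HDAC1_ChIP and 3 input samples (antibody ab7028). The submitters' processing notes name mm10 and Bowtie2 2.2.5, and the study's methods name CisGenome as the peak caller and do not say whether the samples were pooled for it. The study describes the HDAC1 peaks as rank ordered, each with a fold change and a false discovery rate, which were not used here. The deposited file holds a chromosome, a start and an end per peak, in bp, and no count, signal or score column.

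Starts and ends were read as 1-based. All peaks lay within GRCm38.p6 chromosomes (0 past an end). Members were found with the GENCODE M21 basic annotation. Eligible sequence is gene body off every TSS window and basic exon, summed per gene. The representative transcript is the coding one of best APPRIS level, then longest. Shares carry 95% Wilson intervals, which cover counting error over peaks only. Sequence features were read in 200-bp windows around the midpoint and compared by Fisher's exact test, adjusted by Benjamini-Hochberg over 21 motifs.

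Named genes are the 10 hosts with most members, the hosts of the 10 best placed members, the 5 densest hosts with at least 3 members, up to 6 hosts per gene list and hosts of the 3 closest pairs (ties at 50 bp taken by symbol). Members, 20 gene lists and motifs were chosen with earlier results of these data known. Some named genes, 1 gene list and their sequences are not reported here. The rule, intron numbers, motif search and Fisher step were tested on simulated data. The alternatives were other TSS windows, length limits, the better placed part of the list, merging, intron definitions and windows. Python 3.11.15, numpy 2.4.6, pandas 2.3.3, scipy 1.17.1, matplotlib 3.10.9 and samtools 1.23.1 were used.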

Additional observations from a re-analysis of the deposited data

How the results depend on the processing

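The list is a single one for all samples, and leaving out a replicate was not possible. No paired analysis was possible because no value belongs to a single sample. The depth behind the peaks is not known. The cause of the changes below was not tested unless the setting itself gives it (fewer peaks).

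With a TSS window of 5 kb on both sides there were 985 members, 656 hosts and 189 hosts of 2 or more, the first-intron share was 24.7%, the density ratio of first over later introns 1.40 and the share of hosts with a promoter peak 71.3%. With peaks up to 1000 bp apart merged first there were 957 members, 168 hosts of 2 or more and 46 of 3 or more, with a first-intron share of 28.8%, a density ratio of 1.46 and a promoter share of 68.1%. The better placed 7673 peaks alone gave 349 members, 294 hosts, 45 with 2 or more and 10 with 3 or more, a promoter share of 65.3% and a median position of 5751. A length limit of 500 bp gave 77 hosts of 3 or more and a median position of 11473. Counting the first intron of any coding transcript gave a first-intron share of 45.1%. The density ratio stayed above 1 in all settings tried, from 1.40 to 2.31. Leaving out Gm20388, an alternative chosen after seeing the data, gave 117 hosts of 3 or more and a ratio of 2.11.

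The GC-rich difference lost its call with the whole peak (-2.94 percentage points, p = 0.0841), those better placed peaks (-1.21, p = 0.804), a length limit of 500 bp (-2.99, p = 0.113) and a threshold of 50% (-2.44, p = 0.198), all by Fisher's exact test. It kept it with 100-bp windows (-3.59, p = 0.0473, Fisher's exact test). The repeat difference turned to -1.03 percentage points with the whole peak. Over whole peaks 1 motif passed, SP/KLF (-3.78 percentage points, Fisher's exact test, adjusted p = 0.0459). Motif differences that changed sign, none of them called, were in 100-bp windows E-box CAGCTG -0.241, SOX 0.0388, RUNX -0.0309, GATA 0.191, ETS CCGGAAG 0.181, ETS CAGGAAG -0.246 and YY1 -0.108 percentage points. In whole peaks they were E-box CAGCTG -1.38, E-box CAGATG -0.925, RUNX -0.336, GATA 0.394 and ETS CAGGAAG -0.164. In the better placed peaks they were AP-1 0.551, TEAD 0.659, TCF/LEF 0.384, RUNX -0.141 and ETS CCGGAAG 0.395. Under 500 bp they were E-box CAGCTG -0.600, E-box CACGTG 0.256, RUNX -0.198 and CTCF core 0.571. The other settings, among them protein-coding TSS only, midpoints, starts read as 0-based and the longest transcript, kept each positional value within 1.5 times or within its interval.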

Other observations

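Members were spread unevenly over chromosomes, and so was the whole list. Of HDAC1 peaks of any kind, chromosome X held 306 and chromosome 18, with 29.8 Mb of eligible sequence, held 515. The member densities below are thus not shown to be particular to the members. Per Mb of eligible sequence, counting each base once, the autosomes held between 1.17 members (chromosome 16) and 2.38 (chromosome 18), and chromosome X held 0.720 (29 members in 40.3 Mb), 8 of them in Bcor.

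Several of the best placed members had repeated letters, a measure chosen after the sequences had been seen. A word of 10 bases occurred at least 3 times in the 200-bp windows of 5 of the 10 best placed members, of 8 of the 100 best placed, of 116 of all 1513 members (7.67%, 6.43 to 9.12%) and of 99 of 1307 short intergenic peaks (7.57%). The 100 best placed include the 10. Up to 5 kb from a TSS it was 10.7% (8.32 to 13.6%) and farther away 6.07% (4.74 to 7.73%).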
